A study of Homo sapiens with 4 samples.

Results

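DYNLRB1, MYO1D, SNX15, VAMP3, TBC1D17, RAB37, CPTP, GEM, NECTIN1 and FAM234A are 10 genes of membrane traffic, the cytoskeleton and the cell surface, of 22187 genes measured in myeloma cells with and without knockdown of protein kinase C alpha (PKCα). They were chosen by their FPKM differences between knockdown and control, among the largest increases shared by both cell lines studied, and grouped as genes of traffic and adhesion. These differences are therefore given below as a description, without a test. The libraries came from KMS28BM and KMS18, human multiple myeloma cell lines that both carry the t(4;14) translocation, by which the immunoglobulin heavy chain locus drives NSD2 and FGFR3. From each line there was 1 library of cells with a stable knockdown of PKCα, the kinase encoded by PRKCA, and 1 library of control cells carrying a luciferase construct. Total RNA (100 ng per library) went into TruSeq version 2 libraries, which do not keep strand. A difference within a line therefore has no replicate check, and the knockdown sequence, the integration of the construct and PKCα itself cannot be told apart.

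PKCα is a calcium- and diacylglycerol-activated kinase that phosphorylates, among others, proteins of the plasma membrane and the actin cortex. Traffic between endosomes, the Golgi and the cell surface runs on motor proteins that carry vesicles along microtubules and actin, on sorting proteins that bind membrane lipids, on Rab GTPases that mark each compartment, and on SNARE proteins that fuse vesicles with their target. Plasma cells, the cells from which myeloma arises, rely heavily on the outward arm of this traffic because they secrete immunoglobulin.

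The libraries held 39100504 (KMS28BM knockdown), 39507281 (KMS28BM control), 37957404 (KMS18 knockdown) and 37940949 (KMS18 control) expected counts, that is, read counts estimated per gene by the authors. PRKCA stood at 2.43 FPKM (fragments scaled to transcript length and library size) in the KMS28BM knockdown library and 10.9 FPKM in the KMS28BM control library. In KMS18 it stood at 1.47 FPKM in the knockdown library and 7.46 FPKM in the control library, so the targeted transcript was lower in the knockdown library of both lines. All 9 plasma cell markers checked were above 1 FPKM in every library, and they moved with the knockdown: 7 of the 9 (SDC1, TNFRSF17, PRDM1, XBP1, IRF4, MZB1 and SLAMF7) were lower in the knockdown library of both lines, while CD38 was higher in both. Their summed level was 7933 FPKM in the KMS28BM knockdown library and 8661 FPKM in the KMS28BM control library, and 6599 FPKM in the KMS18 knockdown library and 7690 FPKM in the KMS18 control library, most of it JCHAIN. Without JCHAIN it was 1173 FPKM in the KMS28BM knockdown library and 1972 FPKM in the KMS28BM control library, and 1224 FPKM in the KMS18 knockdown library and 1989 FPKM in the KMS18 control library. The 4 myeloid, 3 erythroid and 4 fibroblast markers were each below 1 FPKM in every library. Of the 5 T cell markers, 3 (CD3E, CD2 and TRAC) were higher in the knockdown library of both lines. CD3G was higher with the knockdown in KMS18 only, and CD3D was lower with it in KMS18. The summed level of the 5 was 3.52 FPKM in the KMS28BM knockdown library and 1.17 FPKM in the KMS28BM control library. In KMS18 it was 26.5 FPKM in the knockdown library and 9.84 FPKM in the control library. Most of each sum was CD3E, while CD3D was listed at 0 in both KMS28BM libraries and at or below 0.22 FPKM in KMS18. The part of the plasma cell and T cell markers in the results below was not tested. Of the 4 epithelial markers, EPCAM was at 0.04 FPKM in both KMS28BM libraries, and at 207 FPKM in the KMS18 knockdown library and 290 FPKM in the KMS18 control library. KRT8 was at 2.11 FPKM in the KMS18 knockdown library and 0.81 FPKM in the KMS18 control library, and at or below 0.07 FPKM in KMS28BM. KRT18 and CDH1 were below 1 FPKM in every library.

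Among 7888 genes with at least 5 FPKM in 1 library or more of each line, ordered by the smaller of the 2 lines' differences in log2(FPKM + 1), 9 of the 10 genes took places within the first 12. DYNLRB1 was at rank 1, NECTIN1 at 2, SNX15 at 3, FAM234A at 5, VAMP3 at 7, CPTP at 8, GEM at 10, TBC1D17 at 11 and MYO1D at 12. The places between them belonged to NR1H2 (rank 4), HIST1H2AG (6) and ARNTL (9), which are not among the 10. MYO1D, the last inside, had a smaller difference of 1.06 on the log2 scale, and COTL1, the next gene at rank 13, had 1.04. RAB37 was outside this order because it did not reach 5 FPKM in KMS28BM, and it stood at rank 4 of 11742 genes in KMS18 alone. The median difference of the 10 genes on the log2(FPKM + 1) scale was 1.26 in KMS28BM, with a range of 0.39 to 1.71, and 1.34 in KMS18, with a range of 1.06 to 1.80. The medians over the 10599 genes with at least 1 FPKM in a library of each line were 0.05 in KMS28BM and 0.03 in KMS18. Over both lines, 3.57% of the 14870 genes with enough counts were called higher with the knockdown and 5.25% were called lower (edgeR's quasi-likelihood test, adjusted p below 0.05). The 10 genes were among the 14870, and nothing is read from their own share because the same contrast chose them.

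**Figure D1:**
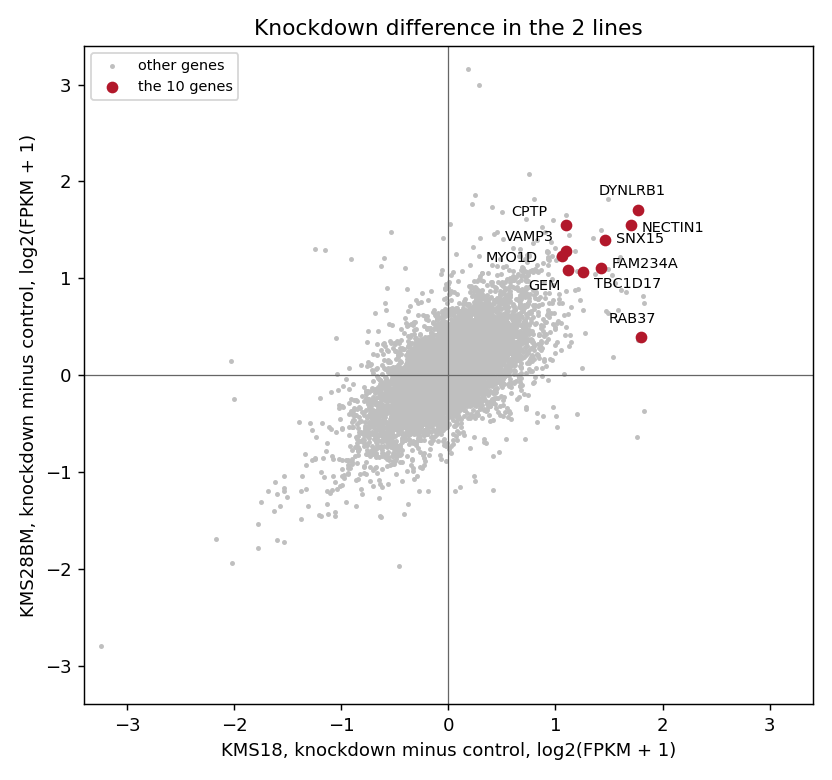
Difference in log2(FPKM + 1), knockdown minus control, in KMS28BM (vertical axis) and in KMS18 (horizontal axis), with 1 point per gene and the 10 genes in red. Of the 10, 9 lie above 1 on both axes, and RAB37 lies at 0.39 in KMS28BM and 1.80 in KMS18.

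The start regions of the genes are shown because the 10 transcripts were chosen for moving together. RefSeq start regions, 250 bases before to 50 bases after the annotated start on the GRCh38.p14 build, were at hand for 6 of the 10 genes: DYNLRB1 (of its 2 entries, the one nearest the GENCODE start), SNX15, FAM234A, VAMP3, CPTP and MYO1D. The 3 that hold a match to the NRF1 motif (searched on both strands, like every motif here) are printed with that of VAMP3, which does not. They lie at chr20:34516172-34516471 (plus strand), chr1:1324552-1324851 (plus strand), chr17:32877075-32877374 (minus strand) and chr1:7771046-7771345 (plus strand), each written from the upstream end to the downstream end of its gene. Capitals mark matches to the NRF1 motif, to the ETS core CCGGAAG and to the CCAAT box on either strand.
DYNLRB1: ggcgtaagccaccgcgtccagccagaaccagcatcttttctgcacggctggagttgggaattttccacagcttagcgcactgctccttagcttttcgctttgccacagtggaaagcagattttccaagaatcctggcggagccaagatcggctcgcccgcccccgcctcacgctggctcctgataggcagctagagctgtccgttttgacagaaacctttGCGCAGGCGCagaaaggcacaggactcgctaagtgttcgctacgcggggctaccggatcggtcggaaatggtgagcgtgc
CPTP: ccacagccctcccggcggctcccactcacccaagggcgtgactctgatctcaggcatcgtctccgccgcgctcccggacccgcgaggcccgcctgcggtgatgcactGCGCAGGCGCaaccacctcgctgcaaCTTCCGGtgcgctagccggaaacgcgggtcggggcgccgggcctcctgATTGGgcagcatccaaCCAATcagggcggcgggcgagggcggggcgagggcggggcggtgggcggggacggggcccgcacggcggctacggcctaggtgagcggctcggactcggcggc
MYO1D: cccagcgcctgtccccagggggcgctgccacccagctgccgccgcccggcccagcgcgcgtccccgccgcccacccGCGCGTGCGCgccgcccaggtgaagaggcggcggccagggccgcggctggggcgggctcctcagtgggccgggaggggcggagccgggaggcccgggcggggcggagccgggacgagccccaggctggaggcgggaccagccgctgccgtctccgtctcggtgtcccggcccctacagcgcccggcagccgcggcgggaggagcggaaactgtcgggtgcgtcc
VAMP3: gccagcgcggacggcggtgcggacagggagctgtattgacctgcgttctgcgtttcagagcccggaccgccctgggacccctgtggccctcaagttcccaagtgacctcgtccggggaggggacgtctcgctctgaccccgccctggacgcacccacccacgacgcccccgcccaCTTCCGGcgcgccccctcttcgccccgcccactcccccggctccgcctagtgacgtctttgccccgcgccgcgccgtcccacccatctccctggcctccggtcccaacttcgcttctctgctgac

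NRF1 is a transcription factor of housekeeping and mitochondrial genes. Its motif lay 30 bases before the start in DYNLRB1, 143 bases before it in CPTP and 174 bases before it in MYO1D, counted to the first base of the match. Of 10259 such windows of tested genes, 11.8% hold it. The ETS core was in VAMP3 and CPTP, against 19.0% of windows, and the CCAAT box was in SNX15 and CPTP, against 36.9% of windows. The GC box (GGGCGG, left in lower case above) was in 6 of 6, against 69.3% of windows. The E-box CACGTG, the AP-1 motif TGANTCA and the cAMP response element TGACGTCA were in none of the 6, against 10.2%, 4.39% and 3.11% of windows. The 6 windows were 58.3% to 82.0% G and C, with a median of 71.5%, against a median of 65.0% over all windows. The RefSeq start of FAM234A lies 275 bases after its GENCODE start, so its window holds no bases before the GENCODE start. For the other genes the 2 starts lie 13 to 53 bases apart. These matches describe letters in the windows and say nothing of binding.

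The cytoskeletal motors come first. DYNLRB1 encodes the roadblock light chain of cytoplasmic dynein, the motor that moves cargo towards the minus end of microtubules. It stood at 176 FPKM in the KMS28BM knockdown library and 53.1 FPKM in the KMS28BM control library. In KMS18 it stood at 154 FPKM in the knockdown library and 44.3 FPKM in the control library. It was the most abundant of the 10 in every library, its folds of 3.32 in KMS28BM and 3.47 in KMS18 were close to each other, and both knockdown libraries lay above both control libraries. Of 13 tested cytoplasmic dynein subunits, 1 rose with edgeR (DYNLL2, another light chain). DESeq2 called 2 higher, limma on log2(FPKM + 1) called 2 higher, and 5 were higher at an unadjusted p below 0.05 in edgeR. None fell by any of these. DYNLL2 was at 11.7 FPKM in the KMS28BM knockdown library and 6.27 FPKM in the KMS28BM control library, and at 17.6 FPKM in the KMS18 knockdown library and 11.5 FPKM in the KMS18 control library. Its log2 difference was 0.69 (SE 0.11, adjusted p = 0.0145 by edgeR), against a median of -0.02 over the list. DYNLRB2, the paralog of DYNLRB1, was at or below 0.37 FPKM in every library. Of 26 tested genes of dynactin, the activating complex of dynein, and of its cargo adaptors, TRAK1 rose (log2 difference 0.55 ± 0.10, SE, adjusted p = 0.0212 in edgeR). The actin-capping subunits CAPZA1 (log2 difference -1.13, SE 0.10, adjusted p = 0.00362) and CAPZA2 (-0.55, SE 0.10, adjusted p = 0.0222) and the dynactin subunit DCTN4 (-0.72, SE 0.11, adjusted p = 0.0131) fell.

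MYO1D encodes a class I myosin, a single-headed actin motor that binds membranes and acts in endosomal recycling. Its Drosophila counterpart sets the left-right asymmetry of organs. It was at 6.21 FPKM in the KMS28BM knockdown library and 2.08 FPKM in the KMS28BM control library, and at 15.5 FPKM in the KMS18 knockdown library and 6.94 FPKM in the KMS18 control library. The fold was 2.99 in KMS28BM and 2.24 in KMS18, and the KMS28BM knockdown level remained below the KMS18 control level. Of the 4 tested members of the class, MYO1C rose (log2 difference 0.54, SE 0.10, edgeR adjusted p = 0.0255). Its call was kept with DESeq2 and lost with limma. None of the class fell with edgeR, DESeq2 or limma, or at an unadjusted p below 0.05 in edgeR. MYO1C was at 22.6 FPKM in the KMS28BM knockdown library and 17.1 FPKM in the KMS28BM control library, and at 7.87 FPKM in the KMS18 knockdown library and 5.18 FPKM in the KMS18 control library. MYO1G, the closest paralog and a myosin of blood cells, was at or below 0.03 FPKM in every library.

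**Figure D2:**
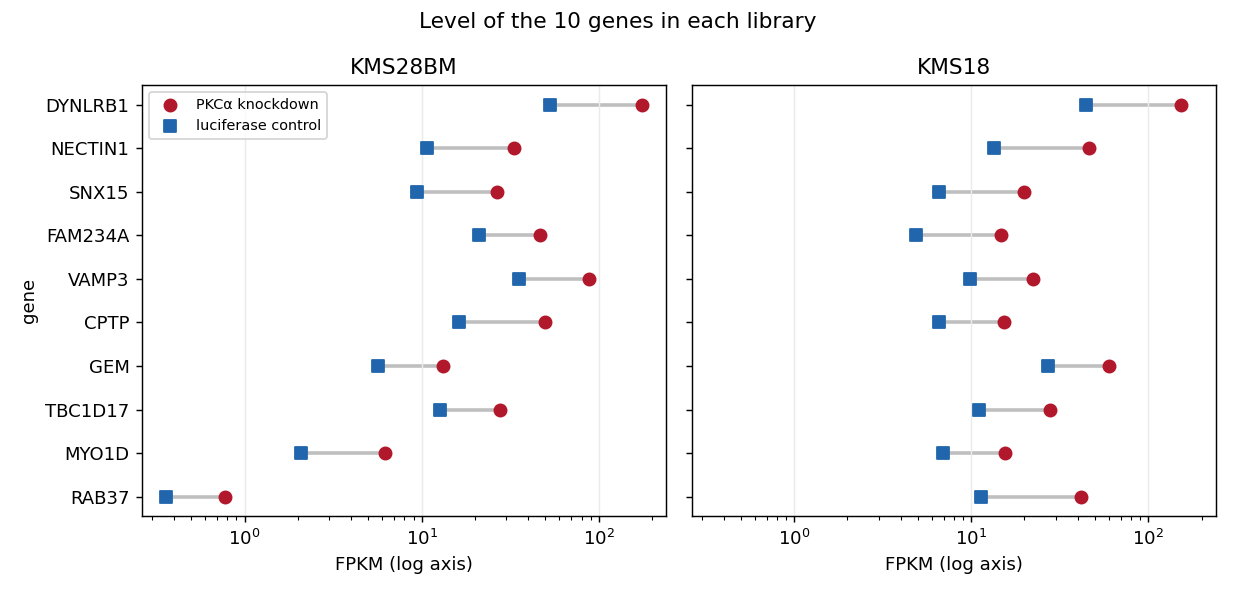
Level of each of the 10 genes in each library, in FPKM on a log axis, with 1 point per library and no error bars because each line and construct has 1 library. In each line the knockdown point of each gene lies to the right of its control point, and the lines differ most for RAB37, at 0.78 and 0.36 FPKM (knockdown and control) in KMS28BM and 41.9 and 11.3 FPKM (knockdown and control) in KMS18.

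Sorting and fusion at endosomes is the work of 3 of the genes. SNX15 encodes a sorting nexin, a protein that binds phosphoinositides of endosomes through its PX domain. It was at 26.6 FPKM in the KMS28BM knockdown library and 9.45 FPKM in the KMS28BM control library, and at 20.0 FPKM in the KMS18 knockdown library and 6.62 FPKM in the KMS18 control library. Both knockdown libraries lay above both control libraries, with folds of 2.81 in KMS28BM and 3.02 in KMS18. The ARL2-SNX15 readthrough transcript, which the annotation places over the whole of SNX15, was at or below 0.50 FPKM in every library. Of 31 tested sorting nexins and retromer subunits, SNX11 (log2 difference 0.78, SE 0.12, edgeR adjusted p = 0.0145) and SNX8 (0.67, SE 0.15, adjusted p = 0.0402) rose. SNX17, which sorts receptors back to the cell surface (-0.60, SE 0.12, adjusted p = 0.0292), and SNX25 (-0.49, SE 0.10, adjusted p = 0.0301) fell. SNX16, another PX-domain protein of endosomes, differed by 0.52 (SE 0.14) and was not called (edgeR adjusted p = 0.0686).

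VAMP3, also called cellubrevin, is the vesicle SNARE of recycling endosomes. It was at 88.3 FPKM in the KMS28BM knockdown library and 35.6 FPKM in the KMS28BM control library, and at 22.3 FPKM in the KMS18 knockdown library and 9.87 FPKM in the KMS18 control library. The fold was 2.48 in KMS28BM and 2.25 in KMS18, and the KMS28BM control library was above the KMS18 knockdown library. Among 41 tested SNAREs and Sec1/Munc18 proteins, which guide SNARE pairing, edgeR called 1 higher and 4 lower, DESeq2 0 higher and 3 lower, and limma on log2(FPKM + 1) 2 higher and 1 lower. With edgeR, VAMP8, a vesicle SNARE of late endosomes and secretory granules, rose (log2 difference 0.49 ± 0.12, SE, adjusted p = 0.049 in edgeR). The syntaxins of endosomes STX12 (log2 difference -0.80, SE 0.17, adjusted p = 0.0381) and STX7 (-0.64, SE 0.12, adjusted p = 0.0226) fell. So did YKT6 (-0.49, SE 0.10, adjusted p = 0.0326) and GOSR2 (-0.41, SE 0.10, adjusted p = 0.0489), SNAREs of Golgi traffic. The calls of VAMP8 and STX12 were lost with DESeq2 and those of STX7, YKT6 and GOSR2 with limma, so none of the 5 held with each of the 3 tools. VAMP2, the close paralog of VAMP3 in regulated secretion, differed by 0.25 (SE 0.10) and was not called (edgeR adjusted p = 0.181).

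TBC1D17 encodes a GTPase-activating protein of Rab proteins that acts in recycling of the transferrin receptor and in autophagy. It was at 27.8 FPKM in the KMS28BM knockdown library and 12.7 FPKM in the KMS28BM control library, and at 27.95 FPKM in the KMS18 knockdown library and 11.1 FPKM in the KMS18 control library. The 2 lines were at nearly the same level under each construct, with folds of 2.18 in KMS28BM and 2.52 in KMS18. TBC1D17 overlaps AKT1S1 by 1035 bases on the opposite strand, so reads there cannot be assigned to one gene without strand. AKT1S1 was at 19.1 FPKM in the KMS28BM knockdown library and 19.1 FPKM in the KMS28BM control library, and at 11.4 FPKM in the KMS18 knockdown library and 9.68 FPKM in the KMS18 control library. Of 38 tested TBC-domain proteins, EVI5L (log2 difference 1.25, SE 0.14, edgeR adjusted p = 0.00676), RABGAP1 (0.68, SE 0.10, adjusted p = 0.0131) and TBC1D7 (0.53, SE 0.12, adjusted p = 0.0433) rose. TBC1D14, a regulator of autophagy (-1.20, SE 0.09, adjusted p = 0.00323), fell. TBC1D15, a close paralog of TBC1D17, fell as well: it was at 6.94 FPKM in the KMS28BM knockdown library and 10.7 FPKM in the KMS28BM control library, and at 11.4 FPKM in the KMS18 knockdown library and 15.3 FPKM in the KMS18 control library (log2 difference -0.65, SE 0.12, edgeR adjusted p = 0.0221).

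RAB37 encodes a Rab GTPase of secretory granules. In KMS28BM it was at 0.78 FPKM in the knockdown library and 0.36 FPKM in the control library, from 76 expected counts in the knockdown library and 18 in the control library. In KMS18 it was at 41.9 FPKM in the knockdown library and 11.3 FPKM in the control library, a fold of 3.69. The scales differed in KMS28BM: the FPKM fold was 2.17 and the fold of counts per library total was 4.27, with a log2 count ratio of 2.09 (95% interval 1.34 to 2.92, exact binomial, counting error only). The listed transcript length of RAB37 in KMS28BM was 2518 bases in the knockdown library and 1333 bases in the control library. Both KMS28BM values were far below both KMS18 values and rest on few reads. CD300LF, which overlaps it on the opposite strand, was at or below 0.46 FPKM in every library. Of 47 tested Rab GTPases, RAB4B, an early endosome Rab, rose (log2 difference 0.75, SE 0.15, edgeR adjusted p = 0.0314). RAB18 (-0.80, SE 0.11, adjusted p = 0.0122) and RAB8B (-0.72, SE 0.12, adjusted p = 0.0183) fell. RAB26, another granule Rab, was at or below 0.14 FPKM in every library. RAB27A, a Rab of regulated secretion, was at 16.9 FPKM in the KMS28BM knockdown library and 13.2 FPKM in the KMS28BM control library, and at 20.9 FPKM in the KMS18 knockdown library and 24.3 FPKM in the KMS18 control library (log2 difference over both lines 0.19, SE 0.16, edgeR adjusted p = 0.498). Of 12 tested Rab effectors of secretion, none rose with edgeR (0 at an unadjusted p below 0.05, 0 with DESeq2, 1 with limma), and UNC13B, a vesicle-priming protein, fell (-0.72, SE 0.11, adjusted p = 0.0127).

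CPTP encodes the transfer protein that moves ceramide-1-phosphate, a signalling sphingolipid, between membranes. It was at 49.8 FPKM in the KMS28BM knockdown library and 16.4 FPKM in the KMS28BM control library, and at 15.3 FPKM in the KMS18 knockdown library and 6.61 FPKM in the KMS18 control library. The fold was 3.04 in KMS28BM and 2.31 in KMS18. Of 18 tested genes of sphingolipid transfer and ceramide-1-phosphate metabolism, 3 rose. CERK, the kinase that makes ceramide-1-phosphate, was at 26.5 FPKM in the KMS28BM knockdown library and 13.1 FPKM in the KMS28BM control library, and at 10.4 FPKM in the KMS18 knockdown library and 5.86 FPKM in the KMS18 control library (log2 difference 0.93, SE 0.10, edgeR adjusted p = 0.00671). The sphingosine kinase SPHK2 (0.56, SE 0.12, adjusted p = 0.0326) and the sphingosine-1-phosphate lyase SGPL1 (0.64, SE 0.14, adjusted p = 0.0353) also rose. UGCG, which makes glucosylceramide from ceramide, fell (-1.14, SE 0.15, adjusted p = 0.0102). GLTP, the glycolipid transfer protein related to CPTP, differed by 0.16 (SE 0.11) and was not called (edgeR adjusted p = 0.413).

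GEM encodes a small GTPase of the RGK family, which binds the beta subunits of voltage-gated calcium channels. It was at 13.2 FPKM in the KMS28BM knockdown library and 5.66 FPKM in the KMS28BM control library, and at 59.9 FPKM in the KMS18 knockdown library and 27.1 FPKM in the KMS18 control library. The folds of 2.32 in KMS28BM and 2.21 in KMS18 were close, at levels that differed by line. RRAD, another RGK GTPase, was at or below 0.10 FPKM in every library.

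At the cell surface, NECTIN1 is an immunoglobulin-like adhesion molecule of cell-cell junctions, linked to actin through afadin, and an entry receptor of herpes simplex virus. It was at 33.5 FPKM in the KMS28BM knockdown library and 10.7 FPKM in the KMS28BM control library, and at 46.5 FPKM in the KMS18 knockdown library and 13.5 FPKM in the KMS18 control library. Both knockdown libraries lay above both control libraries, with folds of 3.12 in KMS28BM and 3.43 in KMS18. None of the 11 tested nectins, nectin-like molecules and partners rose or fell with edgeR, DESeq2 or limma, and 2 were higher at an unadjusted p below 0.05 in edgeR. NECTIN2, the closest in family, differed by 1.53 (SE 0.55) and was not called (edgeR adjusted p = 0.137), from 1.72 FPKM in the KMS28BM knockdown library and 0.85 FPKM in the KMS28BM control library, and 0.17 FPKM in the KMS18 knockdown library and 0.04 FPKM in the KMS18 control library.

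FAM234A encodes a membrane protein to which the authors' tables assign surface and exosome terms and no process. It was at 46.6 FPKM in the KMS28BM knockdown library and 21.1 FPKM in the KMS28BM control library, and at 14.7 FPKM in the KMS18 knockdown library and 4.86 FPKM in the KMS18 control library. The fold was 2.21 in KMS28BM and 3.02 in KMS18, and the KMS28BM control library was above the KMS18 knockdown library. Of 3 tested relatives with FG-GAP repeats none was called with edgeR, DESeq2 or limma, and 1 was lower at an unadjusted p below 0.05 in edgeR. FAM234B differed by -0.36 (SE 0.15, edgeR adjusted p = 0.188).

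Across the 12 family lists, 254 of 284 relatives had enough counts to be tested. Of these, 13 rose, which is 5.12% against 3.57% of all genes, and 16 fell, which is 6.30% against 5.25% of all genes. Their median log2 difference was 0.05, against 0.02 over all 14870 genes. An unadjusted p below 0.05 in edgeR was reached by 72 of the 254 relatives and by 3919 of all 14870 genes. Of the 29 calls, 10 also passed without a filter on low counts, among them CAPZA1, DCTN4, CERK, UGCG, EVI5L, RABGAP1, TBC1D14, RAB18 and UNC13B, and the other 19 did not. On the log2(FPKM + 1) scale with limma the split turned to 16 higher and 8 lower of 229 relatives, and 18 of the 29 calls were kept. The split over all genes turned as well, from 531 higher and 781 lower with edgeR to 542 higher and 487 lower of 12598 with limma. The calls lost on that scale were those of MYO1C, SPHK2, SGPL1, TBC1D15, RAB8B, SNX17, SNX25, CAPZA2, STX7, YKT6 and GOSR2. DESeq2 kept 24 of the 29 and lost those of SNX8, VAMP8, STX12, TBC1D7 and RAB4B.

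**Figure D3:**
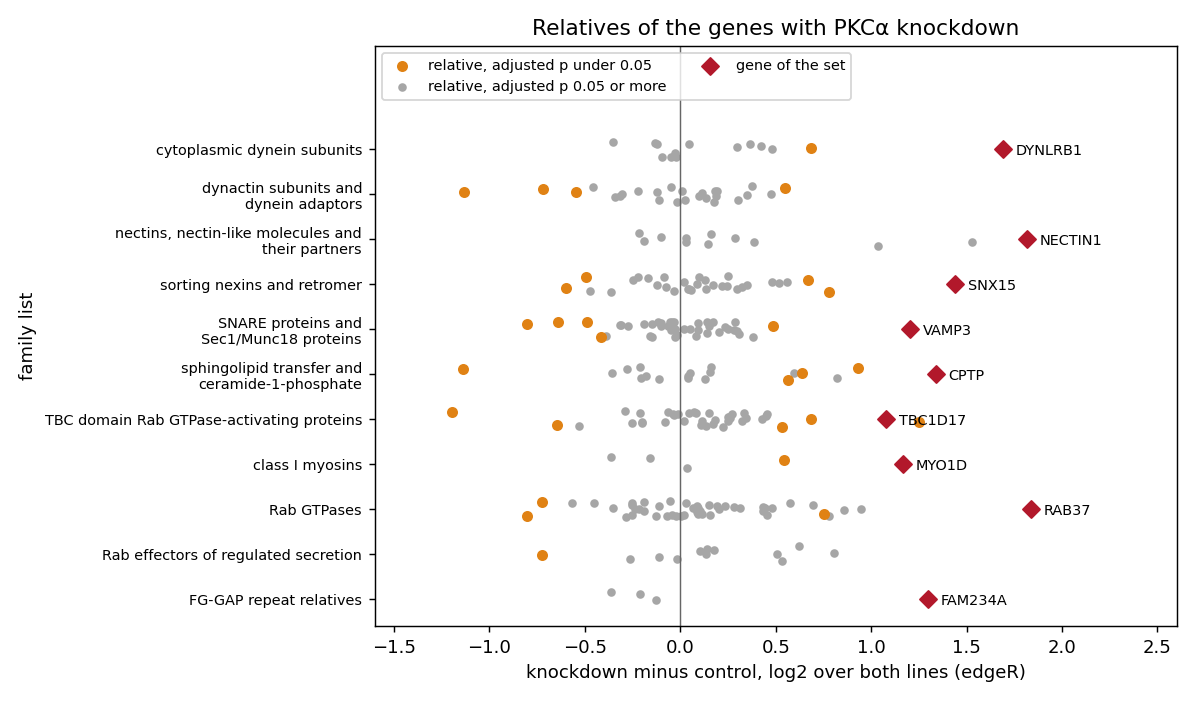
Knockdown minus control on the log2 scale over both lines (edgeR) for the tested relatives, by family list without that of GEM, with 1 point per gene, relatives with an adjusted p below 0.05 in orange and the other 9 of the 10 genes as red diamonds. The relatives in most lists lie on both sides of 0, and the called ones run from -1.20 (TBC1D14) to 1.25 (EVI5L).

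The level difference between the 2 lines did not choose the genes. The error of this fit rests partly on how alike the knockdown differences of the 2 lines are. The 10 were chosen for increases shared by both lines, so their SEs and adjusted p-values here are not free of that choice. In this comparison 30.6% of 14870 genes were called higher in KMS28BM than in KMS18 and 32.3% lower (edgeR, adjusted p below 0.05), so a call is common. Of the 10 genes, 4 were higher in KMS28BM, 4 were lower and 2 were not called. VAMP3 (log2 difference KMS28BM minus KMS18 1.88, SE 0.10, adjusted p = 1.04e-05), FAM234A (1.85, SE 0.14, adjusted p = 4.6e-05), CPTP (1.44, SE 0.13, adjusted p = 9.17e-05) and SNX15 (0.32, SE 0.11, adjusted p = 0.0395) were higher in KMS28BM. RAB37 (-5.81, SE 0.15, adjusted p = 5.82e-07), GEM (-2.27, SE 0.11, adjusted p = 6.45e-06), MYO1D (-1.63, SE 0.12, adjusted p = 3.86e-05) and NECTIN1 (-0.63, SE 0.09, adjusted p = 0.001) were lower in KMS28BM. DYNLRB1 (0.14, SE 0.10, adjusted p = 0.238) and TBC1D17 (-0.03, SE 0.11, adjusted p = 0.796) were not called. The call of SNX15 was lost with DESeq2 (adjusted p = 0.124) and without a filter on low counts (edgeR adjusted p = 0.0649).

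Set by level, the knockdown library of KMS28BM ran from DYNLRB1 through VAMP3, CPTP, FAM234A, NECTIN1, TBC1D17, SNX15, GEM and MYO1D to RAB37. In the knockdown library of KMS18 the order was DYNLRB1, GEM, NECTIN1, RAB37, TBC1D17, VAMP3, SNX15, MYO1D, CPTP and FAM234A. The control library of KMS28BM had the order of its knockdown library except that FAM234A stood above CPTP and TBC1D17 above NECTIN1, and that of KMS18 had MYO1D above SNX15. In the KMS18 control library SNX15 (6.62 FPKM), CPTP (6.61 FPKM) and MYO1D (6.94 FPKM) were close, and with 1 library each their order has no replicate check.

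**Figure D4:**
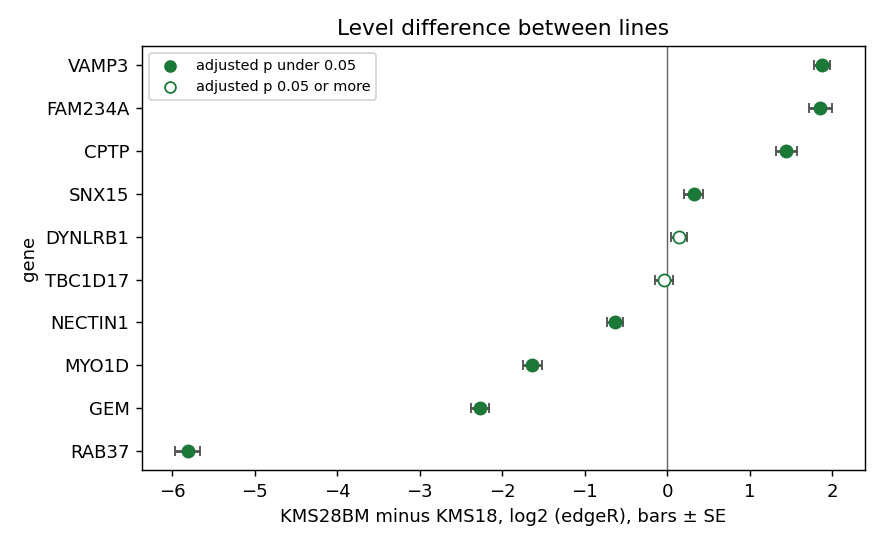
Difference between lines, KMS28BM minus KMS18 on the log2 scale over both constructs (edgeR), for the 10 genes, with bars of 1 standard error. VAMP3, FAM234A, CPTP and SNX15 lie above 0, and NECTIN1, MYO1D, GEM and RAB37 lie below it.

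The size of the knockdown difference was compared between lines on the counts, where only counting error is known and no test can be made. For FAM234A the log2 count ratio was 1.15 in KMS28BM and 1.62 in KMS18, a difference of -0.47 (95% counting interval -0.64 to -0.30). For CPTP it was 1.60 in KMS28BM and 1.20 in KMS18, a difference of 0.39 (0.22 to 0.57). MYO1D had 1.37 in KMS28BM and 1.11 in KMS18, a difference of 0.26 (0.07 to 0.45). TBC1D17 had 1.07 in KMS28BM and 1.23 in KMS18, a difference of -0.16 (-0.31 to -0.01). The intervals of DYNLRB1, NECTIN1, SNX15, VAMP3, GEM and RAB37 included 0. For RAB37 the interval ran from -0.51 to 0.98, so its few KMS28BM counts leave a wide range.

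The tables also list a mean transcript length per gene, which moves when the mix of transcripts assigned to the gene moves. NECTIN1 was listed at 5406 bases in the KMS28BM knockdown library and 4503 bases in the KMS28BM control library, and at 5617 bases in the KMS18 knockdown library and 5292 bases in the KMS18 control library. It was longer in the knockdown library by 20.1% in KMS28BM and 6.14% in KMS18, which makes its FPKM fold smaller than its fold of counts per library total (3.12 against 3.76 in KMS28BM, 3.43 against 3.64 in KMS18). MYO1D went the other way in both lines. It was listed at 4484 bases in the KMS28BM knockdown library and 5166 bases in the KMS28BM control library, and at 4817 bases in the KMS18 knockdown library and 4978 bases in the KMS18 control library. Its FPKM fold of 2.99 in KMS28BM stood beside a fold of counts of 2.59. TBC1D17 was shorter with knockdown by 3.94% in KMS28BM and 6.71% in KMS18, while the lengths of DYNLRB1 and CPTP differed by less than 1% in either line. With 1 library per construct these lengths have no replicate check.

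**Figure D5:**
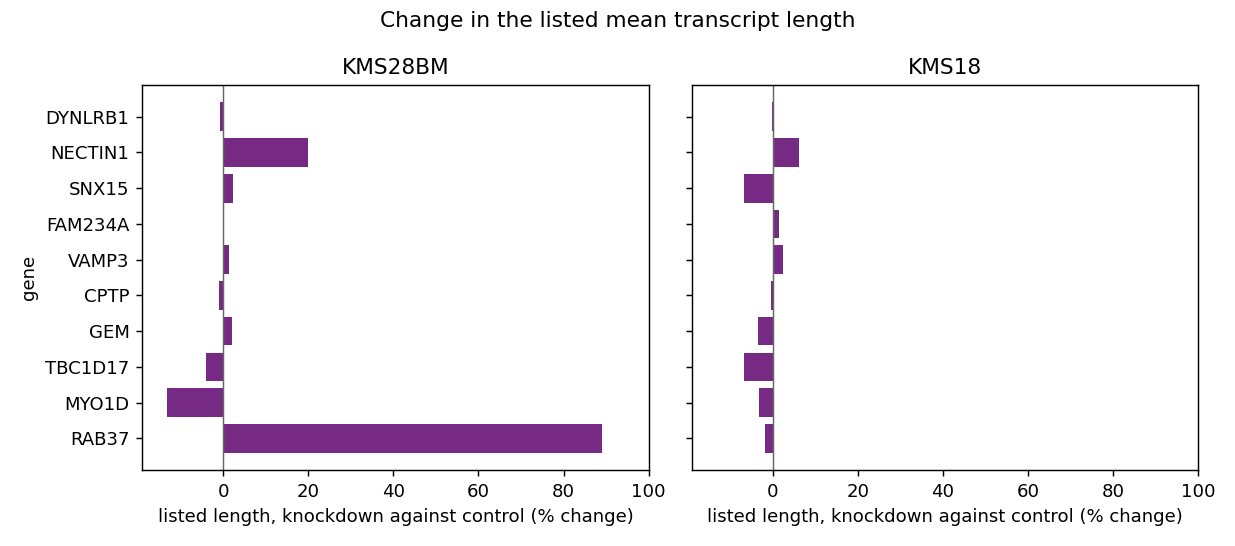
Change in listed transcript length, knockdown against control in percent, for each of the 10 genes in KMS28BM and KMS18, with 1 value per line. NECTIN1 is longer with knockdown in both lines (20.1% in KMS28BM, 6.14% in KMS18), MYO1D is shorter in both, and the 88.9% of RAB37 in KMS28BM rests on 76 counts (knockdown) and 18 counts (control).

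Positions are those of GENCODE 29 on GRCh38, matched by gene identifier. NECTIN1 (chr11:119623408-119729084, minus strand) and SNX15 (chr11:65027408-65040572, plus strand) are on chromosome 11. VAMP3 (chr1:7771269-7781432, plus strand) and CPTP (chr1:1324756-1328897, plus strand) are on chromosome 1. MYO1D (chr17:32492522-32877177, minus strand) and RAB37 (chr17:74670578-74747335, plus strand) are on chromosome 17. DYNLRB1 is at chr20:34516409-34540958 (plus strand), GEM on chromosome 8 (minus strand), FAM234A at chr16:234546-268971 (plus strand) and TBC1D17 at chr19:49877425-49888749 (plus strand). Of the 20 nearest tested coding genes, 1 on each side of each gene, 3 rose and 1 fell with the knockdown. Over all 14870 genes 3.57% rose and 5.25% fell, and 20 neighbours are too few to compare with these shares. The 4 called neighbours are named after their values were seen. ARL2, a small GTPase beside SNX15, rose (log2 difference 0.64, SE 0.09, adjusted p = 0.0127 in edgeR). So did the amino acid oxidase IL4I1 beside TBC1D17 (1.61, SE 0.21, adjusted p = 0.00965) and, by its KMS18 level, the cadherin CDH17 beside GEM (1.41, SE 0.13, adjusted p = 0.00482). CDH17 was at 0.17 FPKM in the KMS28BM knockdown library and 0.06 FPKM in the KMS28BM control library, and at 52.2 FPKM in the KMS18 knockdown library and 18.7 FPKM in the KMS18 control library. USP2, a deubiquitinase beside NECTIN1, fell (-1.09, SE 0.13, adjusted p = 0.00891). It was at 33.9 FPKM in the KMS28BM knockdown library and 69.1 FPKM in the KMS28BM control library, and at 0.20 FPKM in the KMS18 knockdown library and 0.36 FPKM in the KMS18 control library. The other 16 neighbours were not called, and the median of the 20 was 0.05.

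In all, 23 functional terms of the authors' tables were listed for more than 1 of the 10. Because the 10 were grouped as genes of traffic and adhesion, shared terms of traffic are no independent result. The most widely shared were common terms: cytosol was listed for 5 (28% of the 12598 genes at 1 FPKM or more in any library), membrane for 4 (13.3%) and protein binding for 4 (29.1%). Cytoplasmic vesicle was listed for MYO1D, SNX15 and TBC1D17 (1.39% of genes). Recycling endosome was listed for TBC1D17 and VAMP3 (0.675% of genes), as was retrograde transport from endosome to Golgi (0.54%). Secretory granule was listed for RAB37 and VAMP3 (0.262%). Rare terms outside traffic were shared too, such as calmodulin binding by GEM and MYO1D (0.865%) and immune response by GEM and NECTIN1 (0.873%). The 7-base strings AGTCTAA and CAGTCTA, which earlier work on these same libraries found to be frequent in the 3′ untranslated regions of lowered genes, were in the annotated 3′ regions of 0 of the 10. They were in 14.3% of 12830 tested coding genes, in 8.51% of the 505 called higher and in 40% of the 750 called lower. The last share is no independent result, because the strings came from lowered genes of these libraries. The median longest 3′ region was 1925.5 bases in genes called lower, 1430 in those called higher and 1372 over all tested coding genes. The part of length was not tested, and with only 10 genes nothing is read from the 0.

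The gene outside the 10 with the most similar pattern to each of them was sought among 8638 genes with a mean of at least 5 FPKM. The measure was the Euclidean distance of log2(FPKM + 1) over the 4 libraries. Each gene was first centred on its own mean, so a difference in level between 2 genes does not count. NR1H2, a nuclear receptor, was nearest to both DYNLRB1 (distance 0.53) and SNX15 (0.20), at 37.3 FPKM in the KMS28BM knockdown library and 13.4 FPKM in the KMS28BM control library, and 23.5 FPKM in the KMS18 knockdown library and 8.64 FPKM in the KMS18 control library. TMEM173 was nearest to FAM234A (0.43) and VAMP3 (0.41), ARNTL to CPTP (0.27), FAAH2 to GEM (0.15) and ZNF524 to TBC1D17 (0.26). COTL1 was nearest to NECTIN1 (0.47), EPHX2 to RAB37 (0.58) and IGHA2 to MYO1D (0.22), and the reads of IGHA2 may be split with its near copy IGHA1. These distances rest on 4 libraries and are a description.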

How the data were processed

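Per the file headers, the tables that the authors deposited (1 for each library) give an expected count, an FPKM value and a listed length per gene. Of the authors' expected counts, which can be fractional, 52.2% to 54.0% were whole to within 0.005. FPKM in the deposited tables is scaled to that length and to library size. STAR, Bowtie2 and HISAT, and the builds GRCh37 and hg19, are named without roles in the submitters' processing notes. Which program counted the reads is not given in the sources. Counts and FPKM were summed over the identifiers that share a symbol (23844 identifiers, 22187 genes), and each of the 10 genes had 1 identifier.

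Expected counts were rounded and tested with edgeR 4.0.16 in R 4.3.3 (quasi-likelihood, TMM scaling, default filter with a minimum count of 10, cell line and construct as terms, Benjamini-Hochberg adjustment at 0.05). Normalization factors ran from 0.952 to 1.06. The cell line pairs each knockdown library with its control. With 1 residual degree of freedom, moderated to a prior of 5.85, a p-value over both lines reflects the likeness of the lines and not variation among cultures of a line. The script was tested on simulated counts with the same spread for all genes and the same fold in both lines, which these data need not have. Within-line differences use log2(FPKM + 1), which understates changes of low genes, and intervals on count ratios are exact binomial at 95% (a normal approximation for their difference between lines) and cover counting error only. Relatives were named if called (up to the 4 largest per direction and list) or if the closest relative of a member. The members and family lists were chosen with earlier results of these data known. Alternatives were DESeq2 1.42.0, limma 3.58.1 on log2 of FPKM plus 1 or 0.1, other filters and scaling, and a model without the second factor. The single results of the family list of GEM and of 1 gene that overlaps TBC1D17 are not reported here.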

Additional observations from a re-analysis of the deposited data

Results flagged for a closer look

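Each of these results has opposite signs in the 2 lines, with 1 library per construct in each, and the difference between lines was not tested. The log2 count ratio of RAB27A, knockdown over control, was 0.595 in KMS28BM and -0.0554 in KMS18. The listed length of SNX15, knockdown minus control, was 44.4 bases in KMS28BM and -139.0 bases in KMS18. The listed length of GEM, knockdown minus control, was 42.0 bases in KMS28BM and -71.3 bases in KMS18.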

How the results depend on the processing

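The knockdown differences of the 10 genes ran from 1.06 to 2.09 on the log2 scale over the alternatives, and their direction, fixed by how the genes were chosen, is no sign of stability. The 1312 genes called with knockdown by edgeR became 367 without a filter on low counts (66.2% of them lower, against 59.5%) and 0 without the cell line term, where the relatives called, 29 with that term, were also 0. Without the filter the relatives called were 10. Other settings gave 1029 to 1374 genes, and limma on log2(FPKM + 1) gave 47.3% lower. Leaving out the line term removes the replicate block that pairs the libraries: 215 genes had an unadjusted p below 0.05 without it in edgeR and 3919 with it, and DESeq2 with it called 1374. Between lines, 8 of the 10 genes were called, and 3 without the construct term, where edgeR's adjusted p was 0.062 for FAM234A, 0.0934 for CPTP, 0.0596 for MYO1D, 0.546 for NECTIN1 and 0.705 for SNX15. No called direction turned round. The cause of these changes was not tested. The values of RAB37 in KMS28BM and of DYNLRB2, MYO1G, RRAD and RAB26 were all below 1 FPKM and rest on few reads.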
